A study of Rattus norvegicus with 12 samples.

Results

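The 37 genes described here code for the proteins that bring fatty acids into a muscle cell, store them in lipid droplets and burn them in mitochondria. They were chosen by symbol; no measured value entered the rule, but the list was drawn up with earlier results of these data known. Each of the 37 had a row among the 24648 of the rat count table and was among the 14225 rows tested after a filter on low counts. The RNA came from skeletal muscle of male rats aged 540 days whose dams had eaten either a protein-restricted diet, with 6% protein through gestation and lactation, or a control diet. The 12 RNA-seq libraries fall by diet label and by the number in their titles into 4 groups of 3: set 2 restriction (32, 33 and 35), set 2 control (23, 28 and 29), set 1 restriction (12, 13 and 15) and set 1 control (3, 8 and 9). Soleus and extensor digitorum longus are the muscles named for the series, but the labels do not say which library came from which, and the sets go by number here. Neither strain nor the protein content of the control diet is given in the sources used here, and nothing says which libraries came from separate animals, so p-values measure the spread between libraries, which may be partly technical.

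Long-chain fatty acids reach muscle after lipoprotein lipase frees them from circulating lipoproteins. CD36 and FATP1 carry them across the membrane, a cytosolic binding protein shuttles them, and acyl-CoA synthetases trap them as acyl-CoA. From there they are either esterified into droplet triglyceride or passed through the carnitine shuttle into mitochondria, where a repeated cycle of dehydrogenation, hydration, dehydrogenation and thiolysis shortens the chain and hands electrons to the electron transfer flavoprotein. Slow oxidative fibres rely on this route more than fast glycolytic fibres do, and the nuclear receptors PPAR-alpha and PPAR-delta switch on many of its genes.

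Total counts ran from 22829692 to 38313704 per library, and levels are normalised read counts on the CPM scale after trimmed-mean scaling. Fibre markers separated the sets, with all 8 slow-fibre markers lower and all 10 fast-fibre markers higher in set 2. Myh7, the slow myosin heavy chain, measured 702 to 2589 CPM in set 2 and 31172 to 38338 CPM in set 1, and Myh4, the fastest myosin, 11042 to 47519 CPM in set 2 and 4.97 to 396 CPM in set 1. The 396 CPM came from control 3, and the next highest library of set 1, control 8, had 19.5 CPM. In a principal component analysis of the tested genes, component 1 (47.9% of variance) parted set 2 from set 1, and component 2 (11.2%) placed control 23 away from every other library.

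In the comparison of set 2 with set 1, averaged over the diets, 14 of the 37 genes were lower in set 2, 6 were higher and 17 did not pass (edgeR quasi-likelihood test, Benjamini-Hochberg adjusted over all 14225 genes, threshold 0.05). Together 54.1% were called, against 39.5% of all genes, and 25 had an unadjusted p under 0.05, against 47.7% of all genes. As shares, 37.8% were lower, where 19.6% of all genes were, and 16.2% were higher, where 19.9% of all genes were. The median log2 difference was -0.31 over the 37 genes and -0.01 over all genes, and 28 of the 37 values were below 0. All 6 libraries of one set lay beyond all 6 of the other for 15 of the 37, against 18.7% of all genes. Tmlhe barely did so, with 10.104 CPM the lowest of set 2 and 10.098 CPM the highest of set 1. Etfb was also close, with 278.8 CPM the highest of set 2 and 279.0 CPM the lowest of set 1. The largest falls were in genes of uptake, of droplet coating and of the handling of unsaturated fatty acids, and the largest rises in 3 acyl-CoA synthetases. Without control 23 the same 14 and 6 genes were called and no others, while over all genes that fit called 3159 of 14637 higher and 3291 lower, against 2832 and 2788 of 14225 with every library. Without control 3, 18 members were lower, the 14 among them.

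**Figure D1:**
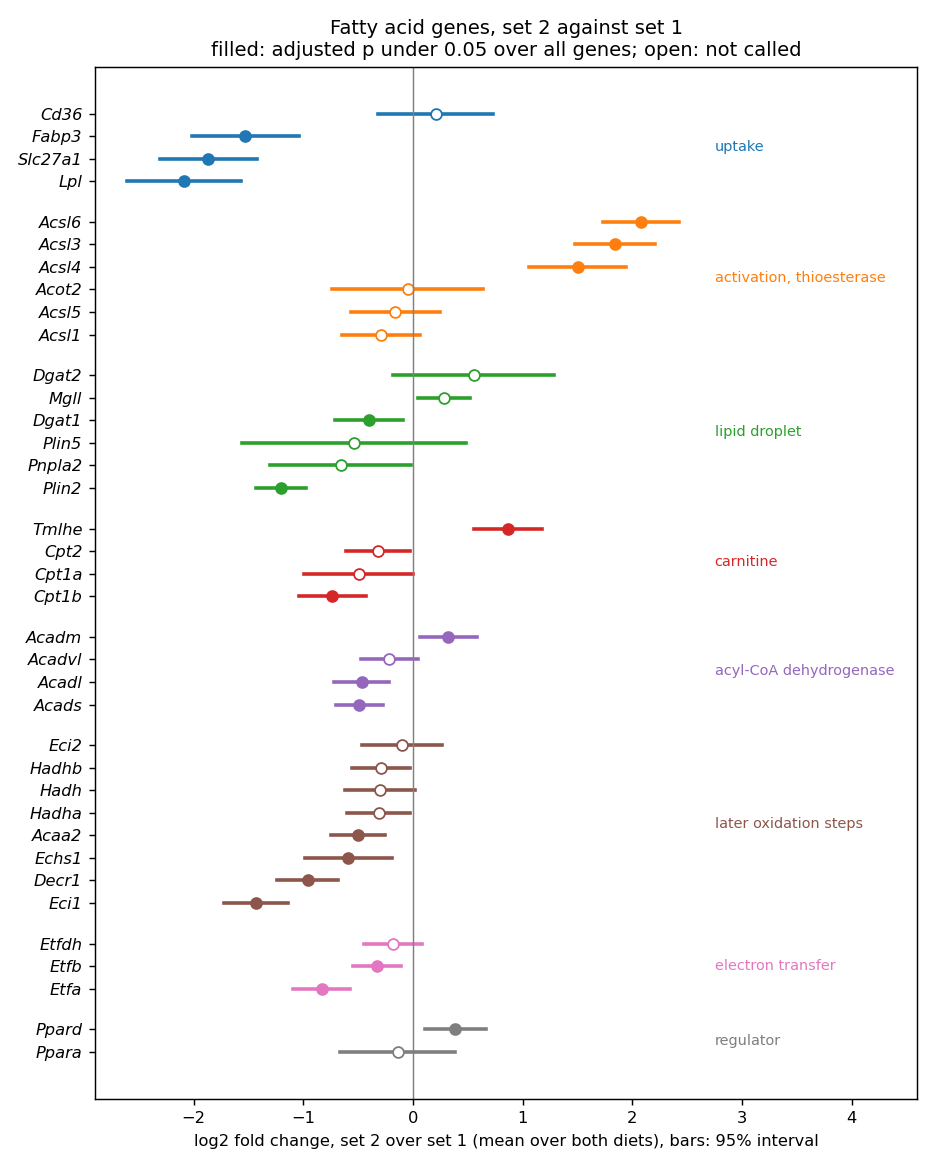
Log2 difference between set 2 and set 1 for each of the 37 genes, grouped by role (vertical axis), with 95% confidence intervals; filled points passed the adjusted threshold of 0.05 and open points did not. Acsl6, Acsl3 and Acsl4 lie furthest to the right, at 2.08, 1.84 and 1.50, and Lpl and Slc27a1 furthest to the left, at -2.09 and -1.87.

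Promoter windows from RefSeq (build GRCr8, 250 bases before to 50 after a gene's start) were at hand for 29 of the 37 genes. The half-site AGGTCA, the core of the elements that PPAR and other nuclear receptors bind, occurred on either strand in 7 of the 29 windows (24.1%), against 16.2% of all 33469 windows. It was in 0 of 5 windows of genes higher in set 2, in 3 of 8 of genes lower and in 4 of 16 of genes that did not pass. The direct repeat of AGGTCA with 1 base between the copies and the extended half-site TCAAGGTCA, which both contain AGGTCA, were in 0 of the 29, against 0.0538% and 0.433% of all windows. The 29 hold 1 window per gene, whereas the 33469 are every window at hand, with no limit to tested genes. These shares therefore come from unlike sets. Windows are shown for 2 genes that were lower in set 2, for the most variable gene and for the gene with the largest rise. Both lower genes shown are among the 3 of 8 with the half-site, so the windows shown do not stand for the 29. Capitals mark AGGTCA or its reverse complement, each sequence runs 5′ to 3′ on the gene's strand, and the windows are chr16:18312717-18313016 (+) for Slc27a1, chr10:13961000-13961299 (+) for Eci1, chr9:1033235-1033534 (−) for Plin5 and chr10:38951911-38952210 (+) for Acsl6.
Slc27a1: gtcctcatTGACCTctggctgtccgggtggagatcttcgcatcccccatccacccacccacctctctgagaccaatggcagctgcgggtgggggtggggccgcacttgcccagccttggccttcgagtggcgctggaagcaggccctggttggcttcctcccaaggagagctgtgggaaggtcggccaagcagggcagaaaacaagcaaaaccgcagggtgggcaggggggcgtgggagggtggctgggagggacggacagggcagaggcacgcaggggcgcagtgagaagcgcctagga
Eci1: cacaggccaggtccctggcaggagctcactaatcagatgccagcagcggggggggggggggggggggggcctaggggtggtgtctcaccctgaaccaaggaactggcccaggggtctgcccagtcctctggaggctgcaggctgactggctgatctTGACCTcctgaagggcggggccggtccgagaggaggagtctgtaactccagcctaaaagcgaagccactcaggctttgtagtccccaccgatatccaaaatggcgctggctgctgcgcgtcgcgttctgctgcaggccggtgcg
Plin5: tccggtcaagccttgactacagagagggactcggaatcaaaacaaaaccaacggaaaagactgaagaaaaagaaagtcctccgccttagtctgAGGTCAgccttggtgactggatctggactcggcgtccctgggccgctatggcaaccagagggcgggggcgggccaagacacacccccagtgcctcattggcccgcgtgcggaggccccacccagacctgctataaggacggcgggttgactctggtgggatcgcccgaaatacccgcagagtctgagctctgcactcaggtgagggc
Acsl6: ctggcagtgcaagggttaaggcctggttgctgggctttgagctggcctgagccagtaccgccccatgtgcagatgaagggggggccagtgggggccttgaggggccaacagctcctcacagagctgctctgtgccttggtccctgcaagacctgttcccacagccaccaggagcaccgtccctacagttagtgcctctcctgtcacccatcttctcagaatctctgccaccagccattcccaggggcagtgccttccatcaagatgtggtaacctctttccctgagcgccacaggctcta
The single half-site begins 242 bases before the start in Slc27a1, 94 before it in Eci1 and 157 before it in Plin5, and the Acsl6 window has none. A match describes the letters of the window and is no evidence of binding.

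Of the 4 uptake genes, 3 fell in set 2 and 1 did not pass. Lpl codes for lipoprotein lipase, the enzyme that frees fatty acids from triglyceride at the capillary wall. It measured 38.6 to 152 CPM in set 2 (median 91.0) and 297 to 506 CPM in set 1 (median 420), so the sets did not overlap. Its log2 difference was -2.09 ± 0.24 (SE, edgeR adjusted p = 1.37e-05), a 4.25-fold lower level in set 2. Slc27a1, the transporter FATP1 whose promoter window is shown above, had 8.96 to 20.1 CPM in set 2 (median 18.2) and 47.4 to 85.0 CPM in set 1 (median 54.5). Its log2 difference was -1.87 ± 0.21 (edgeR adjusted p = 8.67e-06). Fabp3, the heart-type fatty acid binding protein of the cytosol, ranged from 443 to 941 CPM in set 2 and from 888 to 2881 CPM in set 1, with a log2 difference of -1.53 ± 0.23 (edgeR adjusted p = 0.000113). Here the sets overlapped, because restriction 15 of set 1 (888 CPM) lay below control 29 of set 2 (941 CPM). The translocase gene Cd36 measured 46.1 to 150 CPM in set 2 and 50.9 to 104 CPM in set 1, and its difference of 0.21 had a 95% interval of -0.32 to 0.73.

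Fat cells also make Lpl, and marker lists of other cell types moved with the sets. Of 10 adipocyte markers 7 were lower in set 2 and 0 higher, with a median log2 difference of -2.64. Their summed level was 180 to 358 CPM in set 2 and 317 to 506 CPM in set 1. In these sums Fabp4 alone had a mean of 164 CPM in set 2 and 170 CPM in set 1. All 9 macrophage markers were lower in set 2 (summed level 54.3 to 107 CPM in set 2 and 196 to 485 CPM in set 1), as were all 6 fibroblast markers (257 to 362 CPM in set 2 and 452 to 827 CPM in set 1). Of 9 endothelial markers 3 were higher and 1 lower, with summed levels of 296 to 405 CPM in set 2 and 241 to 361 CPM in set 1. The part of these cells in the differences was not tested, and in bulk RNA fewer cells of a type and less RNA per cell cannot be told apart. No marker of these 4 lists was at 0 in every library of any group.

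Activation and hydrolysis of acyl-CoA divided by isoform. The acyl-CoA synthetases Acsl6, Acsl3 and Acsl4, which attach coenzyme A to long-chain and polyunsaturated fatty acids, all rose in set 2 with no overlap between the sets. Acsl6 measured 68.9 to 126 CPM in set 2 (median 93.5) and 20.5 to 29.3 CPM in set 1 (median 21.4), a log2 difference of 2.08 ± 0.16 (edgeR adjusted p = 2.78e-07). Acsl3 had 11.5 to 22.7 CPM in set 2 and 3.03 to 6.28 CPM in set 1 (log2 difference 1.84 ± 0.17, edgeR adjusted p = 1.58e-06). Acsl4 had 11.2 to 26.2 CPM in set 2 and 6.13 to 7.60 CPM in set 1 (log2 difference 1.50 ± 0.21, edgeR adjusted p = 5.73e-05). The other isoforms did not pass. Acsl1, the main synthetase of muscle, had 301 to 572 CPM in set 2 and 309 to 649 CPM in set 1 (log2 difference -0.29, 95% interval -0.65 to 0.06), and Acsl5 had a difference of -0.16 (interval -0.57 to 0.24). Acot2, a mitochondrial thioesterase that removes coenzyme A again, differed by -0.05, with a 95% interval of -0.74 to 0.64. Its libraries ranged from 42.0 to 162 CPM in set 2 and from 56.4 to 154 CPM in set 1. In the RefSeq genes of build GRCr8, Acot2 lies next to the close paralog Acot1, Cd36 next to Cd36l1 and Eci2 next to Eci3. Reads could be split between such neighbours. There, Acsl3, Acsl5, Fabp3, Slc27a1 and Ppara overlap another protein-coding gene whose reads an unstranded library cannot separate. The counts were made on build Rnor_6.0, whose gene positions were not checked.

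**Figure D2:**
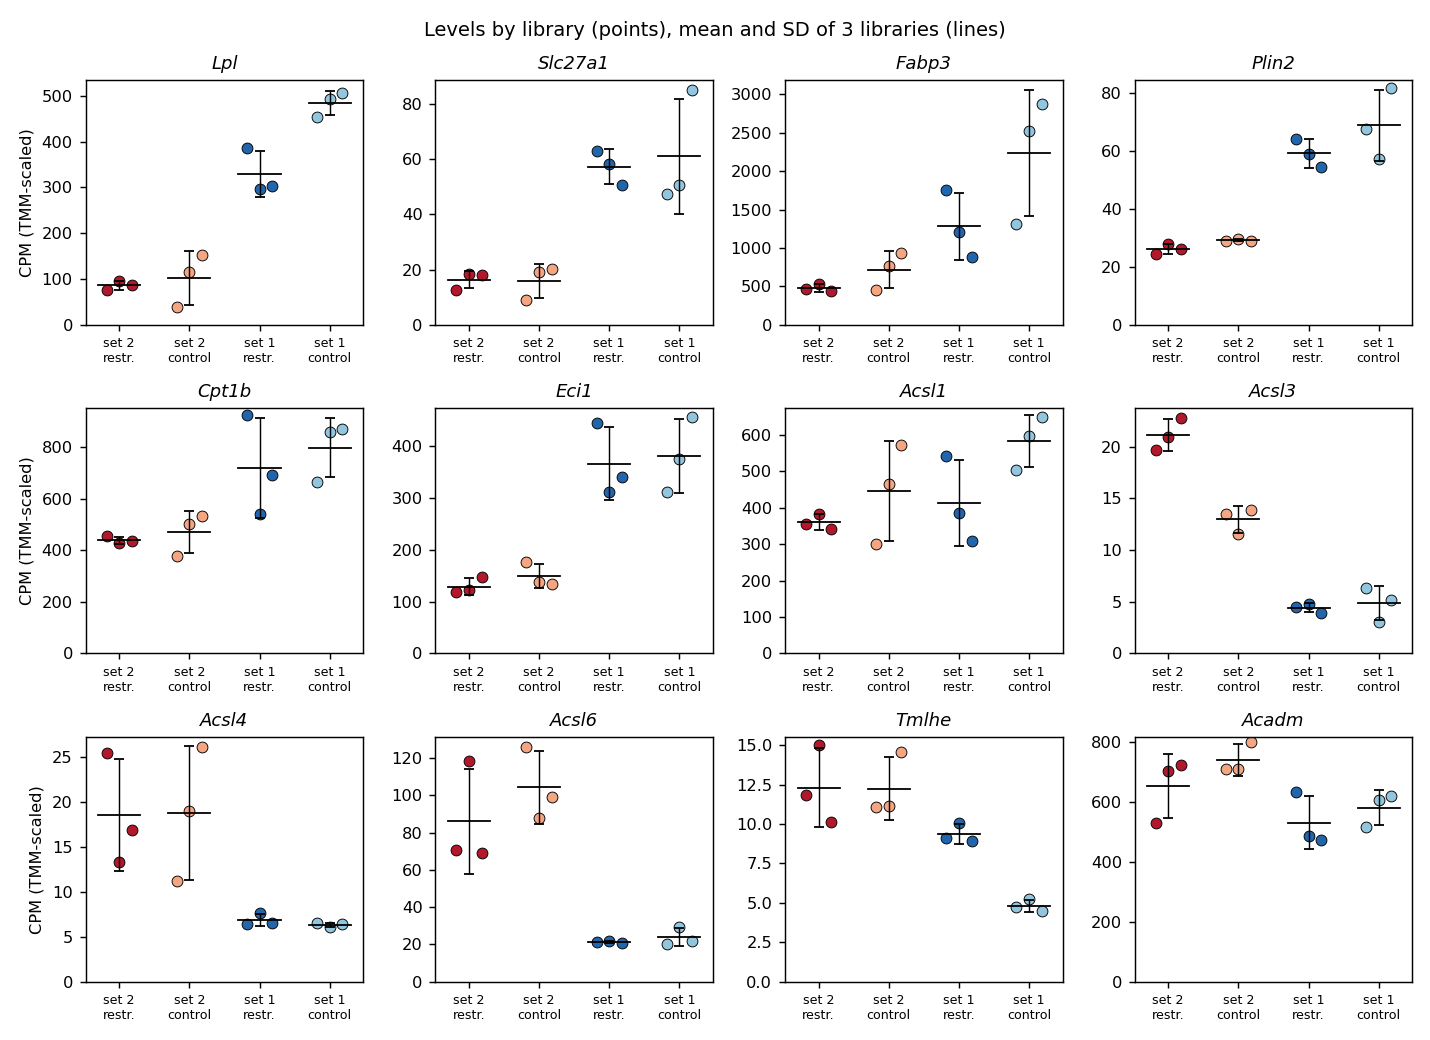
Level of 12 of the genes in each library (CPM), by group, with set 2 left of set 1 and restriction left of control within a set; each point is 1 library, each horizontal line a group mean and each vertical bar the SD of 3 libraries. The set 2 points of Acsl6, Acsl3 and Acsl4 lie above all set 1 points, and those of Lpl, Slc27a1, Plin2 and Eci1 lie below them.

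Of the 6 lipid droplet genes, 2 fell in set 2 and 4 did not pass. Plin2, a coat protein found on droplets of most cell types, was one of the steadiest genes within groups. It measured 24.6 to 29.8 CPM in set 2 (median 28.4) and 54.5 to 81.9 CPM in set 1 (median 61.7), a log2 difference of -1.21 ± 0.11 (edgeR adjusted p = 9.67e-07). Dgat1, which with Dgat2 catalyses the last step of triglyceride synthesis, had 35.4 to 52.5 CPM in set 2 and 44.8 to 92.9 CPM in set 1. Its difference of -0.40 ± 0.15 (edgeR adjusted p = 0.0398) was lost in 10 of 12 fits that dropped a single library, and with limma-voom. Dgat2 had 41.4 to 139 CPM in set 2 and 28.5 to 96.8 CPM in set 1, a difference of 0.55 (95% interval -0.18 to 1.28). The lipases that take triglyceride apart did not pass either. Pnpla2, adipose triglyceride lipase, differed by -0.66 (interval -1.30 to -0.02, edgeR adjusted p = 0.0957) and Mgll, monoglyceride lipase, by 0.28 (interval 0.04 to 0.52, edgeR adjusted p = 0.058). Plin5, the droplet coat that tethers droplets to mitochondria in oxidative tissue, differed by -0.54 with an interval of -1.56 to 0.49, the widest of the 37.

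Among the 4 genes of carnitine transport 1 fell, 1 rose and 2 did not pass. Cpt1b, the muscle form of the outer-membrane transferase that commits acyl groups to the mitochondrion, had 378 to 533 CPM in set 2 (median 445) and 542 to 924 CPM in set 1 (median 774). The sets did not overlap, and the log2 difference was -0.74 ± 0.14 (edgeR adjusted p = 0.000922). Its liver-type partner Cpt1a had 3.00 to 9.60 CPM in set 2 and 8.14 to 11.6 CPM in set 1 (difference -0.50, 95% interval -1.0 to 0.00), and Cpt2, the inner-membrane transferase, differed by -0.32 (interval -0.61 to -0.03, edgeR adjusted p = 0.0781). Tmlhe starts carnitine synthesis by hydroxylating trimethyllysine. It had 10.1 to 15.0 CPM in set 2 and 4.50 to 10.1 CPM in set 1, with a log2 difference of 0.87 ± 0.15 (edgeR adjusted p = 0.000308). Taken by diet, Tmlhe differed between the sets by 0.39 (edgeR adjusted p = 0.164) in restriction libraries and by 1.34 (edgeR adjusted p = 4e-04) in control libraries.

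The acyl-CoA dehydrogenases take the first step of each oxidation cycle, sharing substrates by chain length. Acads, for short chains, had 125 to 156 CPM in set 2 and 164 to 222 CPM in set 1 (log2 difference -0.49 ± 0.10, edgeR adjusted p = 0.00162). Acadl, for long chains, had 402 to 542 CPM in set 2 and 554 to 771 CPM in set 1 (log2 difference -0.47 ± 0.12, edgeR adjusted p = 0.00586). In both genes the sets were separate. Acadm, for medium chains, went the other way, with 532 to 801 CPM in set 2 and 474 to 634 CPM in set 1. Its difference of 0.32 ± 0.12 (edgeR adjusted p = 0.0444) was lost in 9 of 12 fits that each dropped a library. Acadvl, for very long chains, differed by -0.22 and did not pass (95% interval -0.48 to 0.05).

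Of the 8 genes of the later steps 4 fell and 4 did not pass, and the largest falls were in the auxiliary enzymes for double bonds. Eci1, an enoyl-CoA isomerase that moves double bonds so that unsaturated chains can enter the cycle, measured 118 to 176 CPM in set 2 (median 136) and 312 to 456 CPM in set 1 (median 357). Its log2 difference was -1.43 ± 0.14 (edgeR adjusted p = 2.03e-06), and its promoter window is shown above. Decr1, the 2,4-dienoyl-CoA reductase that serves polyunsaturated chains, had 44.8 to 69.1 CPM in set 2 and 102 to 156 CPM in set 1 (log2 difference -0.96 ± 0.13, edgeR adjusted p = 4.86e-05). Both genes separated the sets without overlap. Acaa2, the thiolase that releases acetyl-CoA, differed by -0.50 ± 0.12 (edgeR adjusted p = 0.00352) and Echs1, the short-chain hydratase, by -0.59 ± 0.18 (edgeR adjusted p = 0.0198). Between the sets Echs1 differed by -0.98 in restriction libraries (edgeR adjusted p = 0.0116) and by -0.20 in control libraries (edgeR adjusted p = 0.647). Leaving out control 9, control 28 or restriction 32 ended the call of Echs1, at -0.52, -0.51 and -0.49. The trifunctional protein subunits Hadha (-0.31) and Hadhb (-0.30), the hydroxyacyl dehydrogenase Hadh (-0.30) and the second isomerase Eci2 (-0.10) did not pass, and the edgeR adjusted p of Hadha and Hadhb were 0.0777 and 0.0709.

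Electrons from the dehydrogenases pass to the electron transfer flavoprotein, of which Etfa and Etfb code for the subunits, and then through Etfdh to the respiratory chain. Etfa measured 158 to 254 CPM in set 2 (median 192) and 263 to 513 CPM in set 1 (median 359), a log2 difference of -0.83 ± 0.12 (edgeR adjusted p = 0.000106). Etfb differed by -0.33 ± 0.10 (edgeR adjusted p = 0.0204), with 223 to 279 CPM in set 2 and 279 to 361 CPM in set 1, and its call was lost in 4 of 12 fits that each dropped a library. Etfdh differed by -0.18 (95% interval -0.44 to 0.08). Of the receptors, Ppard rose by 0.38 ± 0.13 in set 2 (edgeR adjusted p = 0.0298; 48.4 to 72.0 CPM in set 2 and 37.4 to 58.9 CPM in set 1, with overlap) and lost its call in 5 of 12 such fits. Ppara, at 18.6 to 47.1 CPM in set 2 and 25.5 to 49.4 CPM in set 1, differed by -0.14 (interval -0.67 to 0.39).

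The pathway's other genes, taken from 6 lists of 96 genes of which 93 were tested, divided evenly between the sets. In set 2, 22 were higher and 23 lower, or 23.7% and 24.7%, against 19.9% and 19.6% of all genes, with a median of 0.00. Together 48.4% of the 93 were called, against 39.5% of all genes. Among 17 uptake and activation genes 2 were higher and 4 lower. The mitochondrial acetyl-CoA synthetase Acss1 was at -1.52, the acyl-CoA binding protein Dbi at -0.91, the lipoprotein receptor Vldlr at 0.83 and the medium-chain synthetase Acsm5 at 2.22. Of 20 droplet and lipolysis genes 3 were higher and 8 lower, and the coat proteins Plin3 (-2.11), Plin1 (-3.25), Cidec (-2.83) and Cidea (-3.51) had the smallest p, with Plin1 and Cidec also on the adipocyte marker list. Carnitine and malonyl-CoA genes had 4 of 9 higher and 1 lower: the plasma membrane carnitine transporter Slc22a5 rose by 1.28, Aldh9a1 of carnitine synthesis by 0.92 and the octanoyltransferase Crot by 0.83, while the inner-membrane carrier Slc25a20 fell by 0.94.

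Mitochondrial oxidation genes had 3 of 16 higher and 5 lower. Bdh1, which interconverts ketone bodies, had 2.40 to 6.37 CPM in set 2 and 34.4 to 74.3 CPM in set 1 (log2 difference -3.52 ± 0.18, edgeR adjusted p = 5.27e-09). Acad9, a dehydrogenase that also assembles complex I, was at -2.92, the thiolase Acat1 at -0.74 and Acadsb, a branched-chain dehydrogenase, at 1.79. Peroxisomal genes had 3 of 14 higher and 2 lower. Ehhadh, the peroxisomal bifunctional enzyme, was at 1.69, the transporter Abcd2 at 0.78 and the reductase Pecr at 0.67, and the second bifunctional enzyme Hsd17b4 was at -0.89. Of 17 regulators 7 were higher and 3 lower, with the retinoid X receptors Rxrg (1.14) and Rxra (1.90), partners of the PPARs, higher in set 2, and the oestrogen-related receptors Esrrb (-2.65) and Esrrg (-1.62) lower.

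The second question was whether the dams' diet changed these genes in the offspring. No member of the 37 passed in set 2, in set 1, in the mean over both sets or in the difference between the sets in edgeR (adjusted over all 14225 genes). Calls over all genes were as scarce, at 0% in set 2, 0.00703% in set 1, 0.00703% for the mean and 0% for the difference between sets. Members with an unadjusted p under 0.05 numbered 1 of 37 in set 2 (8.59% of all genes), 4 in set 1 (7.54%), 5 for the mean (7.83%) and 2 for the difference between the sets (9.5%). DESeq2 called 1 member, Tmlhe in set 1, where it called 0.245% of all genes with an adjusted p, and no member in set 2, for the mean or for the difference between the sets, where it called 0.303%, 0.258% and 0.157% of all genes. Limma-voom called 0 members, with 0.0211% of all genes called in set 1 and 0% in the other contrasts. The diets did not overlap for 7 of the 37 in set 2 (18.9%, against 12.7% of all genes) and for 5 in set 1 (13.5%, against 17.6%). Values below 0 numbered 30 in set 2, with a median of -0.18, and 27 in set 1, with a median of -0.13, while the median of all genes was -0.01 in set 2 and 0.00 in set 1. The set 2 and set 1 contrasts share no libraries but may share animals, so their values need not be independent. The mean and the difference between sets use the libraries of both.

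**Figure D3:**
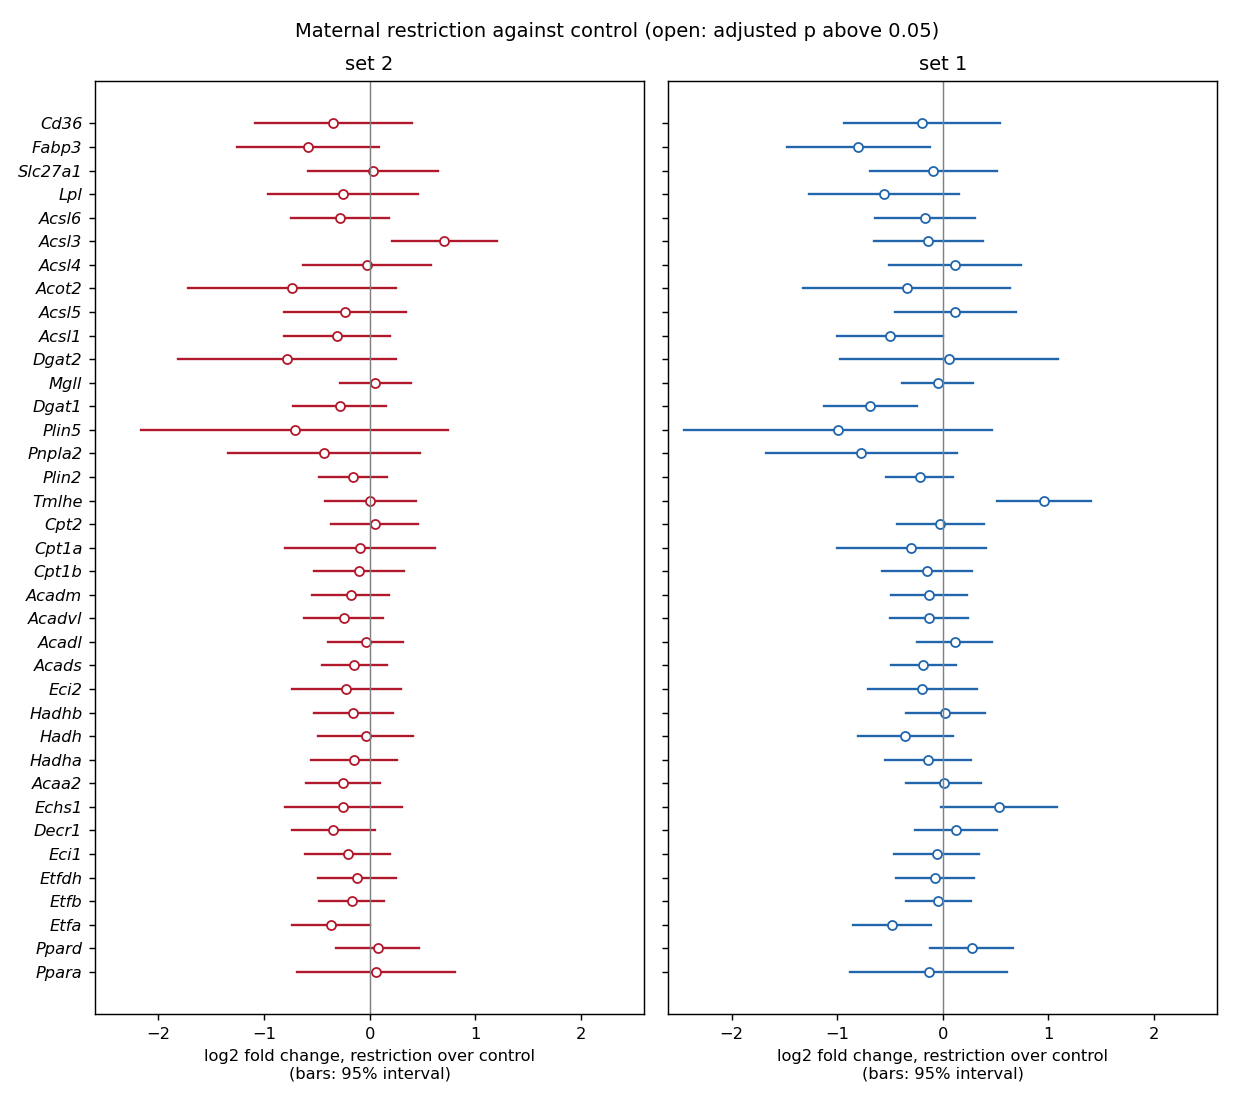
Log2 difference between restriction and control for each of the 37 genes in set 2 (left panel) and set 1 (right panel), with 95% confidence intervals. No point passed the adjusted threshold of 0.05; Tmlhe in set 1 (0.96) and Acsl3 in set 2 (0.70) lie furthest right in their panels.

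Tmlhe had the smallest p in set 1. It measured 9.12, 10.1 and 8.91 CPM in set 1 restriction libraries, against 4.74, 5.24 and 4.50 CPM in the controls of that set. In set 2 it measured 11.8, 15.0 and 10.1 CPM in restriction libraries and 11.05, 11.1 and 14.5 CPM in controls. The diets were separate in set 1 only and overlapped in set 2. The set 1 log2 difference was 0.96 ± 0.21 (95% interval 0.51 to 1.40), with an unadjusted p of 0.000391 and an edgeR adjusted p = 0.289. DESeq2 gave 0.97 with an adjusted p of 0.0177. The difference of the diet effect between sets, -0.95 ± 0.29, did not pass (edgeR adjusted p = 0.416), so the sets are not shown to differ.

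Dgat1 and Etfa came next in set 1. Dgat1 measured 51.2, 44.8 and 46.0 CPM in set 1 restriction libraries and 48.0, 87.3 and 92.9 CPM in set 1 controls. Control 3 lay between the restriction libraries, so the groups overlapped. Its log2 difference was -0.68 ± 0.21 (edgeR adjusted p = 0.526), and without control 3 it was -0.92 (edgeR adjusted p = 0.0678). Etfa measured 352, 286 and 263 CPM in set 1 restriction libraries and 366, 379 and 513 CPM in controls, and in set 2 it had 158, 184 and 184 CPM in restriction libraries and 225, 199 and 254 CPM in controls. For Etfa the diets were separate in both sets. Its log2 difference was -0.37 ± 0.17 in set 2 (edgeR adjusted p = 0.58), -0.48 ± 0.17 in set 1 (edgeR adjusted p = 0.542) and -0.42 ± 0.12 for the mean (edgeR adjusted p = 0.472).

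In set 2 the smallest p belonged to Acsl3, with 19.7, 20.9 and 22.7 CPM in restriction libraries and 13.5, 11.5 and 13.9 CPM in controls. Every restriction library was above every control there, whereas set 1 had 4.52, 4.76 and 3.91 CPM in restriction libraries and 6.28, 3.03 and 5.19 CPM in controls, which overlapped. The set 2 difference was 0.70 ± 0.23 (edgeR adjusted p = 0.502), and the difference between the sets was 0.84 ± 0.33 (edgeR adjusted p = 0.489). Decr1 had 44.8, 52.6 and 61.9 CPM in set 2 restriction libraries and 69.1, 64.7 and 68.3 CPM in controls, a difference of -0.34 ± 0.18 (edgeR adjusted p = 0.601). Echs1 had the third-smallest p for the difference between the sets, at -0.78 ± 0.37 (edgeR adjusted p = 0.525), with 17.4, 25.0 and 25.8 CPM in set 2 restriction libraries and 41.4, 21.3 and 18.6 CPM in set 2 controls, where control 23 was the highest; without control 23 the difference between the sets was -0.34 (edgeR adjusted p = 0.765). In set 1 it had 48.8, 44.2 and 41.4 CPM in restriction libraries and 29.5, 27.3 and 36.2 CPM in controls, without overlap.

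Most of the mean effects over both sets were below 0, without passing. They ran from -0.85 for Plin5 to 0.48 for Tmlhe, 29 of 37 were below 0, and the median was -0.14, against -0.01 for all genes. Fabp3 had a mean effect of -0.69 ± 0.22 (edgeR adjusted p = 0.494) and Acsl1 one of -0.40 ± 0.17 (edgeR adjusted p = 0.57). Lpl, with 386, 297 and 304 CPM in set 1 restriction libraries and 455, 493 and 506 CPM in set 1 controls, was separate by diet in set 1. The adipocyte markers summed to 317 to 362 CPM in set 1 restriction libraries and 387 to 506 CPM in set 1 controls, and fast-fibre markers to 9468 to 11754 CPM in set 1 restriction libraries and 4057 to 7828 CPM in set 1 controls, without overlap. In set 2 the red blood cell markers summed to 390 to 514 CPM in restriction libraries and 738 to 2445 CPM in controls, where control 23 was the highest, and the endothelial markers to 296 to 347 CPM in restriction libraries and 363 to 405 CPM in controls, also without overlap. Of these set 2 markers, 5 of 5 and 3 of 9 had an unadjusted p under 0.05, against 8.59% of all genes, and 0 passed in edgeR. Among the set 1 markers, 1 of 10 adipocyte and 6 of 10 fast-fibre genes did, against 7.54% of all genes, and 0 passed. In set 1, 10 of 10 adipocyte markers were below 0, whereas 7 of 10 fast-fibre markers were above 0 and 3 below. In set 2, 5 of 5 red blood cell markers were below 0. Of the 9 endothelial markers 6 were below 0 and 3 above, with a median of -0.04. In that order, the diets did not overlap for 2, 4, 4 and 1 markers (17.6% of all genes in set 1, 12.7% in set 2). The part of these 4 lists in the diet values was not tested. None of the 93 other genes of the pathway passed in a diet contrast in edgeR. Of these 93, 13, 16 and 14 had an unadjusted p under 0.05 in set 2, set 1 and the mean, against 8.59%, 7.54% and 7.83% of all genes. Values of the 93 also lay mostly below 0, for 60, 62 and 63 genes in that order. Their medians were -0.11, -0.13 and -0.14, so the lean was not particular to the 37.

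Among the members Plin5 varied most within groups. The within-group SD on the log2 scale was 1.14 for Plin5, at the 94.1 percentile of all tested genes, 0.78 for Dgat2, 0.75 for Acot2 and 0.66 for Pnpla2, and it was 0.13 for Etfb and for Acads. The median over members was 0.28 and over all genes 0.36, with 12 of 37 members above the latter value. Plin5 measured 77.2, 39.0 and 52.2 CPM in set 2 restriction libraries, 36.7, 114 and 125 CPM in the controls of set 2, 154, 36.0 and 31.9 CPM in set 1 restriction libraries and 31.7, 174 and 235 CPM in set 1 controls. Etfb, in contrast, stayed within 223 to 252 CPM in set 2 restriction libraries and 262 to 279 CPM in set 2 controls.

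The 4 most variable members were low in some libraries together. Control 3 and control 23 were the lowest of their groups for Plin5, Dgat2, Acot2 and Pnpla2, and restriction 33 was the lowest of its group for the same 4 genes. Control 9, restriction 12 and restriction 32 were the highest of theirs for these 4, and control 29 for all but Pnpla2. Pdk4 is a kinase that shuts off glucose oxidation and is raised by fasting and by PPAR activity. Its lowest and highest libraries were those of Dgat2 and Acot2 in every group. Plin5 differed in the lowest set 1 restriction library and Pnpla2 in the highest set 2 control. Pdk4 measured 718, 55.2 and 311 CPM in set 2 restriction libraries, 6.06, 642 and 945 CPM in the controls of set 2, 88.3, 28.8 and 74.1 CPM in set 1 restriction libraries and 41.3, 165 and 381 CPM in set 1 controls. Ppara was lowest in control 9 (25.5 CPM), restriction 12 (28.4 CPM), control 29 (19.8 CPM) and restriction 32 (18.6 CPM), where Pdk4 was highest. It was highest in control 3 (49.4 CPM), control 23 (47.1 CPM) and restriction 33 (38.2 CPM), where Pdk4 was lowest. Set 1 restriction libraries differed here, with Ppara highest in restriction 15 (36.2 CPM). Pdk4 was lowest there in restriction 13, where Ppara had 29.4 CPM. Across all 37 members control 3 was the lowest of its group for 28 and restriction 12 the highest for 30, against 36.1% and 36.7% of all genes, and control 23 was the lowest for 20 (43.1% of all genes). Control 3 also had the most Myh4 of set 1 (396 CPM, against 19.5 CPM in control 8, the next highest). Its summed fast-fibre markers, at 7828 CPM, were above those of control 8 (7244 CPM) and control 9 (4057 CPM). They were below those of the set 1 restriction libraries (9468 to 11754 CPM). Slow-fibre markers summed to 91387, 103815 and 105702 CPM in control 3, 8 and 9. In restriction 12, 13 and 15 the slow-fibre sums were 102369, 91221 and 92519 CPM. They were 4420, 5459 and 3651 CPM in control 23, 28 and 29, and 1667, 4703 and 5275 CPM in restriction 32, 33 and 35. The part of fibre type in this order was not tested. The set 2 restriction libraries differed from this order. Restriction 33 was the lowest for 12 of 37 (30.8% of all genes), and restriction 32, the highest for the 4 variable genes, was the lowest for 20 (37% of all genes) and the highest for 9 (35.1%).

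**Figure D4:**
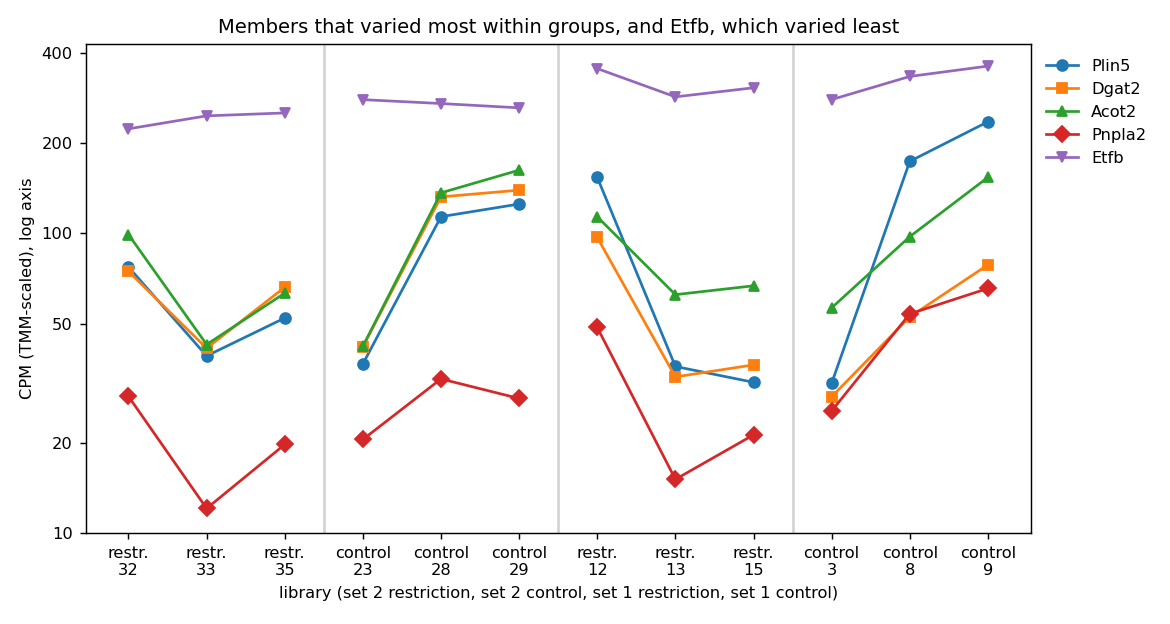
Level (CPM, log axis) in each library of the 4 most variable members (Plin5, Dgat2, Acot2 and Pnpla2) and of Etfb, one of the least variable, by group with set 2 left of set 1; lines join the libraries of 1 group for reading only, since they have no order. Plin5 spans 31.7 to 235 CPM in set 1 controls, whereas Etfb spans 279 to 361 CPM.

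Isoform ratios within a library do not depend on scaling, and 12 differences of log2 ratios were tested by exact two-sided permutation. None passed after adjustment over the 12. For Dgat1 over Dgat2 the mean log2 ratio was -0.70 ± 0.71 in set 2 and 0.26 ± 0.61 in set 1 (SD, n = 6 each), a difference of -0.96 (exact p = 0.0368, Benjamini-Hochberg adjusted p = 0.442). The mean of Plin2 over Plin5 was -1.25 ± 0.76 in set 2 and -0.30 ± 1.28 in set 1 (exact p = 0.145, adjusted p = 0.87), and that of Cpt1a over Cpt1b -6.19 ± 0.45 in set 2 and -6.32 ± 0.23 in set 1 (exact p = 0.537, adjusted p = 0.882). Between diets within a set, 3 libraries against 3, an exact p cannot go below 0.1, and the smallest obtained was 0.3, for Dgat1 over Dgat2 in set 1.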

How the data were processed

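The authors deposited a table of whole-number read counts per gene for 12 libraries; a second table of normalized values, equal in each library to the deposited counts divided by 1 constant (tolerance 1e-06), was not used. Trimmomatic, HISAT2, featureCounts and DESeq2 and the build Rnor_6.0 are named, per the submitters' processing notes; the kit, per the labels' protocols, was Illumina TruSeq RNA. Whether counting used strand is not given in the sources used here.

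From the deposited counts, rows of low count were removed by filterByExpr on the 4 groups, and the rest were scaled by TMM and fitted with edgeR 4.0.16 (R 4.3.3) quasi-likelihood, 1 mean per group, and 5 contrasts were taken with Benjamini-Hochberg adjustment over 14225 genes and a threshold of 0.05. DESeq2 1.42.0 and limma-voom (limma 3.58.1) were alternatives, with other scalings, filters, subsets of libraries and a replicate block. Intervals (95%) use the moderated standard error and the fit's degrees of freedom. Total counts per library were 22829692 to 38313704. Counts of replicate libraries differed by more than sampling noise, with a chi-square per degree of freedom of 26.0 to 157.6. The scripts were tested on simulated counts. Titles of set 1 and set 2 carry numbers that differ by 20 between sets.

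The 37 members and the other gene lists were chosen with earlier results of these data known. Values per library are given for up to 8 called members in each direction with the largest change between sets, the 3 members with the smallest p in each diet contrast, the ratio members and Tmlhe; from each other list, up to 4 called genes with the smallest p. Members, genes described for their spread and Pdk4, whose values were seen first, are named besides. Levels were not compared between genes, since no transcript lengths were used.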

Additional observations from a re-analysis of the deposited data

How the results depend on the processing

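In the comparison of set 2 with set 1, fits that left out 1 of the 12 libraries called 4 to 6 members higher and 11 to 18 lower, and 15 of the 20 calls were kept in all 12. Acadm, Dgat1, Ppard, Etfb and Echs1 lost theirs in 9, 10, 5, 4 and 3 fits. Within control libraries alone 4 were higher and 9 lower, and within restriction libraries alone 3 higher and 12 lower, all of them among the 20; these fits contrast 3 libraries with 3. With library size alone as scaling 4 were higher and 18 lower; over all genes that scaling moved the median by -0.11 and called 2102 higher and 3384 lower, against 2832 and 2788. For the diet, DESeq2 called 1 member higher in set 1 (Tmlhe), and every other fit called 0 in every diet contrast. When 1 library was left out, the log2 ratio of Cpt1a to Cpt1b between diets ran from -0.17 to 0.12 for the mean, from -0.29 to 0.047 in set 1 and from -0.23 to 0.36 in set 2, and that of Dgat1 to Dgat2 from -0.30 to 0.16 for the mean, so these changed sign; the cause was not tested. Title numbers that differ by 20 do not by the labels mark a shared animal. The correlation of deviations of same-numbered libraries was 0.0791 to 0.175, below 0.1 in 2 of 6 pairs, and each library of set 1 correlated best with its own number. With those pairs as a replicate block, 7 members were higher (5 of the 6) and 17 lower (all 14), and the difference between sets called 0. Members at low counts, such as Cpt1a and Tmlhe, carry the largest counting error.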
